A study of Mus musculus with 9 samples.

Results

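Growth hormone and STAT5 responsive genes of the liver were followed across 3 genotypes: the receptor gene Ghr, the transcription factor gene Stat5b, the feedback inhibitors Socs2 and Cish, the secreted effector Igf1, and the male-biased targets Hsd3b5, Elovl3, Susd4, Mup20 and Mup21. The 10 symbols were given as a list and each was measured by the brightest probe set annotated to it alone, taken over all 9 arrays. A probe set is the group of array probes that report 1 transcript. Of the 10 genes, 9 had such a probe set, among 28939 probe sets tested. Mup20 had none in the platform annotation used and was not analysed here. Gene arrays of whole liver were available for 9 samples from male mice aged 8 to 9 weeks with the background C57/BL6, in 3 groups of 3. They were wild type mice, mice lacking NEMO in hepatocytes (NEMOΔhepa, here the NEMO knockout), and the cross of that knockout with mice lacking p21 in all tissues. The sources used here do not give the promoter that drives the hepatocyte deletion, no group lacked p21 alone, and the labels do not say that wild type mice were littermates. Each sample is called a mouse here, but the labels do not say outright that replicates are separate animals, so p-values measure the spread between these samples, which may be technical. All mice had standard chow.

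Growth hormone binds its receptor on hepatocytes and activates the kinase JAK2, which phosphorylates STAT5a and STAT5b. STAT5b then enters the nucleus, induces Igf1, Igfals and the inhibitors Cish and Socs2, and in male rodents, where the hormone is secreted in pulses, maintains the male pattern of liver gene expression. Female rodents have a more continuous hormone profile, and loss of STAT5b in male liver is known to lower male-biased genes and to raise a set of female-biased genes.

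Values are log2 signals after RMA, so a difference of 1 is a 2-fold change, and levels of different genes cannot be compared with each other. The targeted gene Ikbkg, which encodes NEMO, differed from wild type by -0.52 in the NEMO knockout and by -0.60 in the cross (limma adjusted p = 0.0184 and 0.00835). The probe set annotated to Cdkn1a, the p21 gene, jointly with 4930567H12Rik was not lower in the cross. It was 2.11 above wild type (limma adjusted p = 0.0194), so the cross is called the labelled double knockout and each direction given for it rests on its label. The position of its probes within the gene was not analysed here, so it may not check the deletion. Replicate 1 of the NEMO knockout stood apart from the other NEMO knockout arrays on the second principal component and had the lowest array weight (0.412). Array medians lay between 6.47 and 6.58. Hepatocyte markers were read as a check of the tissue. None of 10 measured genes, albumin (Alb) among them, passed the test in any comparison. Against wild type, 7.68% (NEMO knockout) and 9.32% (labelled double knockout) of all probe sets were called. So few genes without a call therefore do not show that hepatocyte content was unchanged. The mean level of these markers was 12.77 to 12.93 (wild type), 12.78 to 12.83 (NEMO knockout) and 12.73 to 12.91 (labelled double knockout). Whether probe sets this bright report changes in full was not tested. In whole liver, fewer cells of a type and less RNA per cell cannot be told apart.

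The male-biased targets fell together in the NEMO knockout, while the hormone's effector and feedback genes did not pass the test. Hsd3b5 was 23.7-fold, Elovl3 5.23-fold, Mup21 3.59-fold and Susd4 2.45-fold lower than in wild type. Igf1 differed from wild type by -0.02 with a 95% interval from -0.16 to 0.12. Ghr and Stat5b were lower by 0.26 and 0.25 on the log2 scale, without overlap between the groups but above the threshold of adjusted p = 0.05. The same targets were also lower in the labelled double knockout than in wild type, and no member passed the test between the knockout groups.

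**Figure D1:**
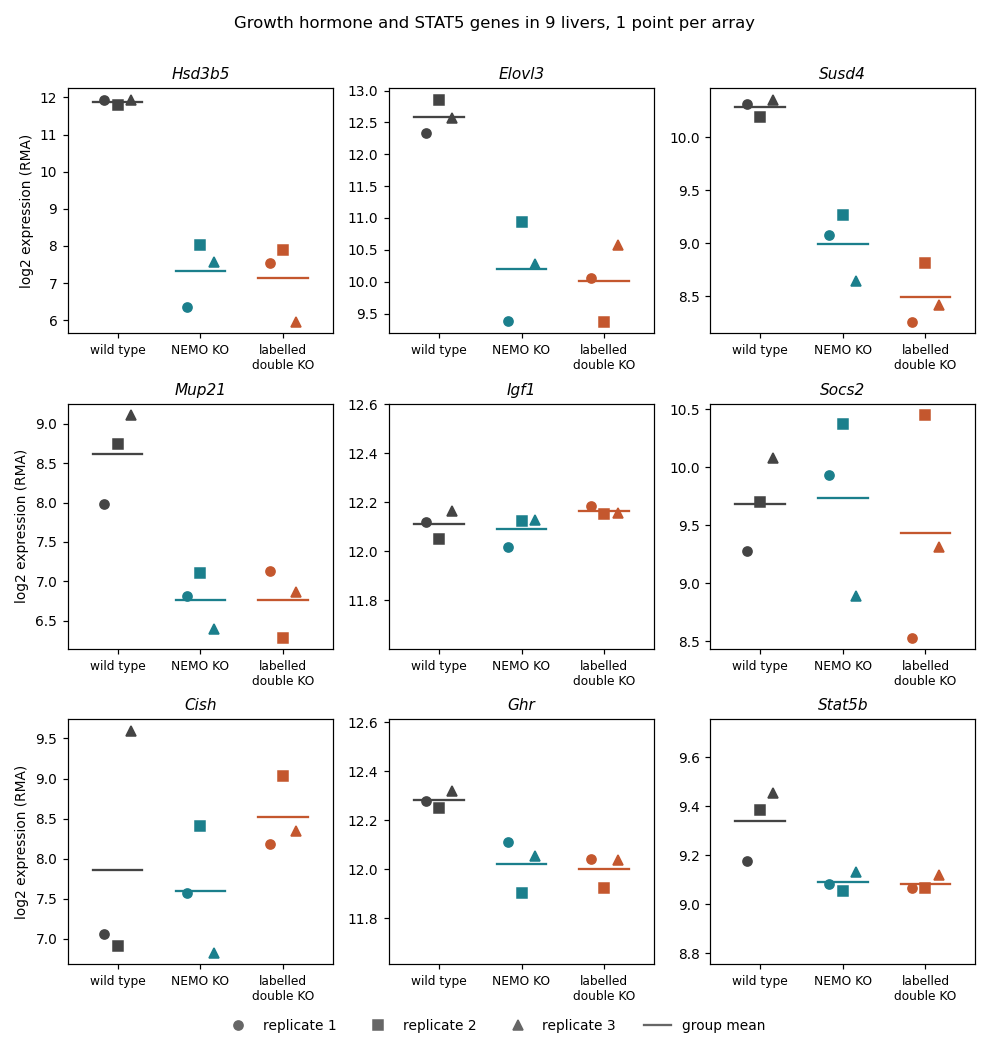
Log2 expression (vertical axis, range set per gene) of the 9 measured genes on each array, by genotype on the horizontal axis, with marker shapes for replicate numbers and a line for the group mean. Hsd3b5, Elovl3, Susd4 and Mup21 lie lower on every knockout array than on every wild type array, Igf1 spans 12.02 to 12.18 over all arrays, and Cish and Socs2 spread widely within groups.

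Hsd3b5 encodes a 3-beta-hydroxysteroid dehydrogenase family member that reduces steroids in male mouse liver (probe set 10500545). It read 11.92, 11.79 and 11.94 in wild type replicates 1 to 3, 6.35, 8.03 and 7.58 in the NEMO knockout and 7.54, 7.88 and 5.95 in the labelled double knockout. The wild type mice were nearly alike (SD 0.08), all knockout mice lay far below them, and the knockout mice differed among themselves (SD 0.87 and 1.03). The NEMO knockout difference was -4.57 ± 0.51 (SE, n = 3 per group; limma adjusted p = 0.000962), the lowest of all 28939 probe sets tested. The labelled double knockout was -4.76 ± 0.51 from wild type (27.1-fold lower, adjusted p = 0.000655), again the lowest of all. A pair of further probe sets is annotated jointly to Hsd3b5, Hsd3b4 and Gm10681, and both hold the same values on all arrays. Their signal was 8.08 ± 0.10 (SD) in wild type and 6.78 ± 0.53 in the NEMO knockout, a fall by 1.30 on the log2 scale (adjusted p = 0.00953). Other family members had smaller differences from wild type. Hsd3b3 was at -0.27 (adjusted p = 0.0612), Hsd3b2 at -0.54 (0.195) and Hsd3b6 at -0.27 (0.238) in the NEMO knockout, and none of them passed in either group. Hsd3b7, a bile acid synthesis enzyme of the family, was at -0.24 in the NEMO knockout (adjusted p = 0.234) and fell by 0.66 ± 0.10 in the labelled double knockout (adjusted p = 0.00423). Family members are similar in sequence and may share signal.

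The 250 bases before the RefSeq start of Hsd3b5 (GRCm38.p6, chr3:98645535-98645784, minus strand) are shown. Those of Mup21 (chr4:62150842-62151091, minus strand) and of Cish (chr9:107296409-107296658, plus strand) are shown with them. Mup21 fell with Hsd3b5, and Cish passed the test in no comparison. They were searched because STAT5 is known to bind the letters TTCNNNGAA. Capitals mark a match to TTCNNNNGAA, the same arms with 1 more base between them.
Hsd3b5: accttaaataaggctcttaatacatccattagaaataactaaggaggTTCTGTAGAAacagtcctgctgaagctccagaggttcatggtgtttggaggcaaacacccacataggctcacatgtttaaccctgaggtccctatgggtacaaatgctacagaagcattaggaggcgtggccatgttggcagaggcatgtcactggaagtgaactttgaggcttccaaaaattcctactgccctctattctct
Mup21: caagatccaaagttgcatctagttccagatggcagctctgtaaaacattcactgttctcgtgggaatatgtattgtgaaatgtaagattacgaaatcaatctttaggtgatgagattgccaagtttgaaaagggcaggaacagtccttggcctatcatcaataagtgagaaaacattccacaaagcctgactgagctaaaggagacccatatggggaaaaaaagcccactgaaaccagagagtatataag
Cish: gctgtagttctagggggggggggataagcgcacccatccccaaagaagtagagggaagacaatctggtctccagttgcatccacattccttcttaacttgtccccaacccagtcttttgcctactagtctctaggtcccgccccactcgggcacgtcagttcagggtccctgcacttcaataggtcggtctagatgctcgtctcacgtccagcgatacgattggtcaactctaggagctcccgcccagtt
The 9-base motif, which reads the same on both strands, was found in none of the 10 windows of the 7 members listed in the RefSeq promoter table, against 7.02% of 32851 windows of the same length. The longer motif was found in 1 of the 10 windows, that of Hsd3b5, 203 bases before the start, against 5.85% of windows. So few windows cannot tell 1 match from that share, and binding was not tested. TATAAA on either strand was found in 1 of the 10 windows, a window of Ghr, against 12.4%. These letters say nothing of sites outside the windows.

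Elovl3 encodes an elongase of very long chain fatty acids that is higher in male than in female liver (probe set 10463551). Its values were 12.34, 12.86 and 12.57 in wild type, 9.38, 10.94 and 10.28 in the NEMO knockout and 10.06, 9.36 and 10.58 in the labelled double knockout. No knockout mouse reached the lowest wild type mouse. The difference from wild type was -2.39 ± 0.39 in the NEMO knockout (adjusted p = 0.00597) and -2.58 ± 0.39 in the labelled double knockout (adjusted p = 0.00348).

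Mup21 belongs to the major urinary proteins, lipocalins made in liver that carry pheromones into urine (probe set 10513538). It read 7.98, 8.75 and 9.11 in wild type, 6.81, 7.10 and 6.39 in the NEMO knockout and 7.13, 6.28 and 6.86 in the labelled double knockout. Wild type replicate 1 was the lowest of its group and still above every knockout mouse. The differences were -1.85 ± 0.31 in both knockout groups (adjusted p = 0.00659 for the NEMO and 0.00566 for the labelled double knockout). The probe set for Mup3, another family member, was at -0.39 ± 0.11 in the NEMO knockout (adjusted p = 0.0571) and fell by 0.48 in the labelled double knockout (adjusted p = 0.0213). That for Mup5 was at -0.11 (adjusted p = 0.545) and -0.15 (0.395). Mup genes are nearly identical in sequence, so signal of other members in these probe sets is possible and the attribution is uncertain.

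Susd4 encodes a membrane protein with sushi domains that inhibits complement (probe set 10352439). It had 10.31, 10.19 and 10.35 in wild type, 9.08, 9.26 and 8.64 in the NEMO knockout and 8.26, 8.82 and 8.41 in the labelled double knockout. The wild type values sat within 0.16 of each other, and the knockout groups overlapped. Against wild type, the NEMO knockout fell by 1.29 ± 0.17 (adjusted p = 0.00217) and the labelled double knockout by 1.79 ± 0.17 (3.46-fold, adjusted p = 0.000402). Between the knockout groups Susd4 was at -0.50 ± 0.17, the member with the smallest p in that comparison (unadjusted p = 0.0178), which did not pass the adjustment (adjusted p = 0.541).

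These 4 genes were the members called lower in the NEMO knockout, 4 of 9, where 2.02% of all tested probe sets were called lower. For the labelled double knockout it was 5 of 9 against 3.51% of all. No member was called higher, against 5.66% and 5.81% of all. With each array median centred, calls over all probe sets were split into 1304 higher and 1169 lower in the NEMO knockout, in place of 1638 and 584, and into 1309 and 1661 in the labelled double knockout, in place of 1680 and 1016. The genes were listed with earlier results of these data known, so the shares describe the list. Each of the 8 calls of these 4 genes against wild type was kept under all 19 alternatives run, which included leaving out each array, other normalizations and a replicate block. The highest adjusted p among them was 0.0317, for Mup21.

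Igf1, the secreted growth factor through which much of the hormone's effect on growth runs, was steady (probe set 10365559). Its values were 12.12, 12.05 and 12.16 in wild type, 12.02, 12.12 and 12.13 in the NEMO knockout and 12.18, 12.15 and 12.16 in the labelled double knockout. All 9 mice lay between 12.02 and 12.18. Igf1 in the labelled double knockout differed from wild type by 0.05 (95% interval -0.09 to 0.19) and from the NEMO knockout by 0.08 (-0.06 to 0.21; adjusted p = 0.851). Within groups the SD of Igf1, pooled over the 3 genotypes, was 0.05, smaller than that of 27159 of the 28939 probe sets. Its signal ranked at percentile 98.5 of all probe sets, and whether so bright a probe set reports changes in full was not tested.

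Ghr, the growth hormone receptor, was slightly lower in each knockout mouse than in each wild type mouse (probe set 10427402). It read 12.28, 12.25 and 12.32 in wild type, 12.11, 11.90 and 12.06 in the NEMO knockout and 12.04, 11.92 and 12.04 in the labelled double knockout. The NEMO knockout difference of -0.26 ± 0.07 did not pass (adjusted p = 0.0634). Ghr in the labelled double knockout fell by 0.28 ± 0.07 (1.22-fold, adjusted p = 0.0407). That call ended when any 1 of 7 arrays was left out, these being the 3 of wild type, the 3 of the labelled double knockout and NEMO knockout replicate 3 (adjusted p = 0.0579 to 0.127). The NEMO knockout difference passed without NEMO knockout replicate 1 (-0.30, adjusted p = 0.0442) and after median centring of the arrays (-0.32, adjusted p = 0.0218).

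Stat5b, the main STAT5 gene of liver, showed the same order (probe set 10391286). Its values were 9.17, 9.39 and 9.45 in wild type, 9.08, 9.06 and 9.13 in the NEMO knockout and 9.07, 9.07 and 9.12 in the labelled double knockout. Wild type replicate 1 lay just above the knockout arrays, and replicates 2 and 3 further up. The differences of -0.25 ± 0.08 from wild type in both knockout groups did not pass (adjusted p = 0.0975 and 0.0818). Without wild type replicate 1 they were -0.33 and -0.34 and passed (adjusted p = 0.028 and 0.0246). Over all single omissions the adjusted p went as high as 0.258 and 0.234, and the differences as small as -0.19 and -0.20. Groups that did not overlap were common in these data. With Ghr and Stat5b, 6 of 9 members were lower without overlap in each knockout group, where 11.8% (NEMO knockout) and 13.5% (labelled double knockout) of all probe sets were so.

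Socs2 and Cish encode SH2 proteins that STAT5 induces and that dampen the receptor's signal. Socs2 (probe set 10394674) had 9.28, 9.70 and 10.08 in wild type, 9.94, 10.37 and 8.89 in the NEMO knockout and 8.53, 10.45 and 9.31 in the labelled double knockout. The groups overlapped throughout, and the differences in the 2 knockout groups from wild type were 0.04 ± 0.49 (95% interval -1.06 to 1.15; adjusted p = 0.974) and -0.26 ± 0.49 (-1.36 to 0.85; adjusted p = 0.853). A dimmer Socs2 probe set (10372069) differed by 0.11 ± 0.30 and 0.05 ± 0.30. Cish (probe set 10588577) had 7.06, 6.91 and 9.60 in wild type, 7.57, 8.41 and 6.82 in the NEMO knockout and 8.18, 9.03 and 8.34 in the labelled double knockout. The wild type mice alone spanned 2.69, more than any difference between group means. The NEMO knockout was at -0.25 ± 0.67 from wild type (-1.76 to 1.25; adjusted p = 0.877), and this became 0.62 without wild type replicate 3 (adjusted p = 0.509). For the labelled double knockout the value was 0.66 ± 0.67 against wild type (adjusted p = 0.679), and 0.92 ± 0.67 against the NEMO knockout (adjusted p = 0.831). Without wild type replicate 3 the former was 1.53 (adjusted p = 0.0768). The NEMO knockout intervals of both genes include changes of 2-fold in either direction.

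**Figure D2:**
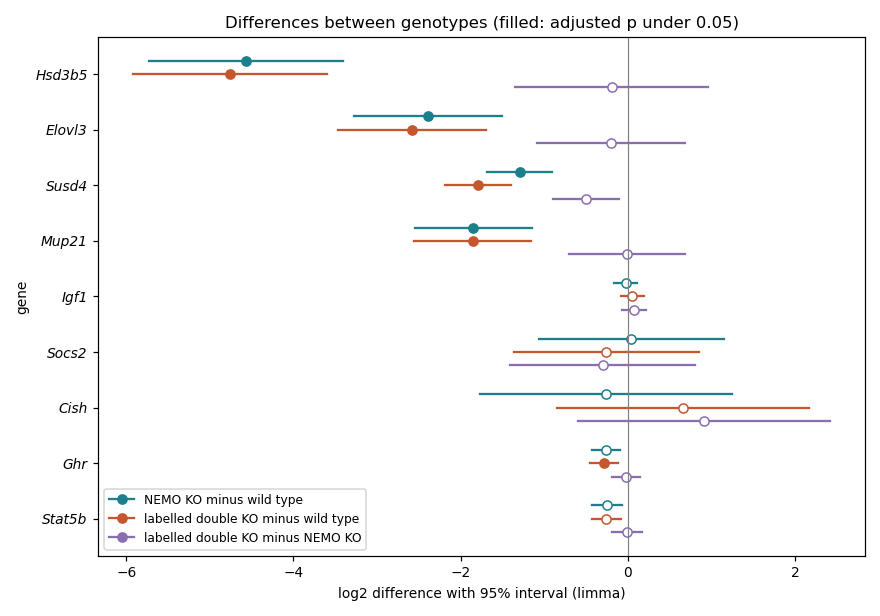
Log2 differences between genotypes (horizontal axis) with 95% intervals from limma for the 9 measured genes (vertical axis), filled where the adjusted p was under 0.05. The 4 male-biased targets lie well below 0 against wild type in both knockout groups, Ghr is filled in the labelled double knockout alone, and the intervals of Cish reach from -1.76 to 2.42.

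The spread within genotypes separated the members into steady and variable genes. Only 13 of the 28939 probe sets had a larger pooled SD within groups than Cish (1.02), 48 than Hsd3b5 (0.78) and 59 than Socs2 (0.75). Ghr (0.08) and Stat5b (0.09) were below the median of all probe sets (0.12). Several members were high in the same mice. The highest Cish of each genotype was in wild type replicate 3, NEMO knockout replicate 2 and labelled double knockout replicate 2. The same 3 mice had the highest Socs2, Hsd3b5 and Susd4 of their groups. In wild type that lead was small for Hsd3b5 (11.94 against 11.92) and Susd4 (10.35 against 10.31). Elovl3, Mup21, Igf1, Ghr and Stat5b did not follow that order in every group. Ghr was lowest in replicate 2 of the NEMO knockout (11.90) and of the labelled double knockout (11.92). The 3 mice with the highest Cish also had the highest Onecut1, which encodes the hepatocyte factor HNF6 (11.28, 10.20 and 10.72, where the other mice of each group lay at or below 10.20, 9.46 and 10.48). Bcl6, a repressor known to be lowered by growth hormone pulses through STAT5, was lowest in the same mice. It read 10.03, 9.66 and 8.60 in wild type, 9.54, 7.94 and 9.29 in the NEMO knockout and 9.53, 6.96 and 8.09 in the labelled double knockout. Igfbp1, an IGF binding protein that rises in fasting, was lowest in them as well, at 7.95, 9.42 and 9.76. Other genes outside the members broke the order. The male-biased genes Cyp7b1, Slco1a1 and Ces2a were highest in replicate 1 of the labelled double knockout. Igfals was highest in wild type replicate 1, and in the labelled double knockout it was lowest in replicate 2 (8.80). The order was noticed after the values were seen. Of all probe sets, 4.07% were highest of their groups in the 3 mice with the highest Cish, and 3.75% were lowest in them. The time of sampling relative to feeding is not given in the sources used here, and its part in these values was not tested.

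**Figure D3:**
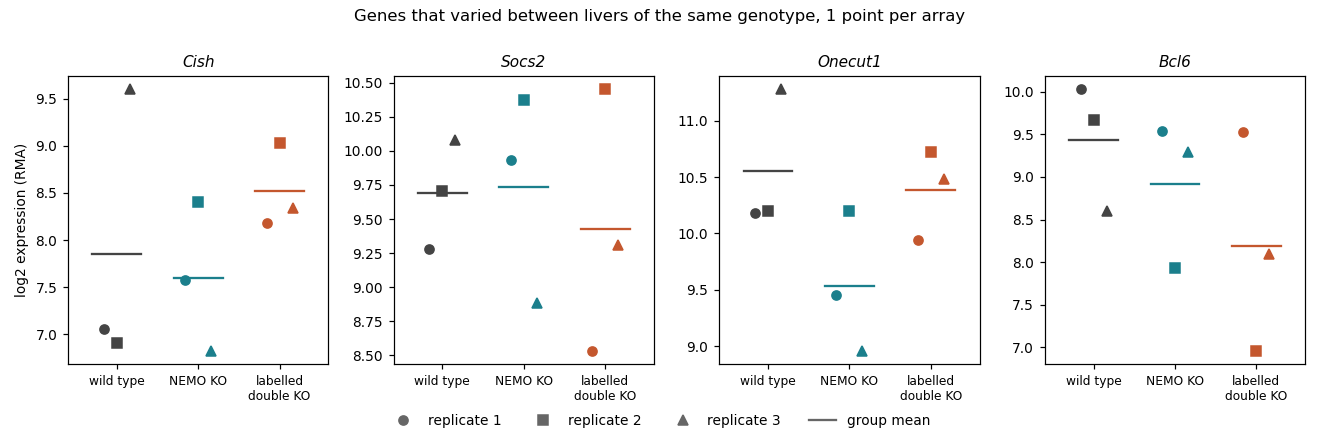
Log2 expression of Cish, Socs2, Onecut1 and Bcl6 on each array (vertical axis), by genotype, with marker shapes for replicate numbers and a line for the group mean. Wild type replicate 3 and replicate 2 of each knockout group hold the highest Cish, Socs2 and Onecut1 and the lowest Bcl6 of their groups.

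Most genes of the receptor's signalling path did not pass the test, which does not show them unchanged. In a list of 20 genes, 19 were measured. In the NEMO knockout 3 rose, none fell and 16 did not pass. Of all probe sets, 7.68% were called there, and 5.66% were called higher. The list's median difference was -0.03 and that of all probe sets -0.04. Jak2, the receptor's kinase, was at 0.19 ± 0.11 (adjusted p = 0.394), Stat5a at -0.08 ± 0.09 (0.689) and the inhibitor Socs1 at 0.10 ± 0.07 (0.449). Socs3, an inhibitor induced by IL-6 and STAT3, rose by 0.47 ± 0.10 in the NEMO knockout (adjusted p = 0.0206). It read 7.74, 7.50 and 7.83 in wild type and 8.10, 8.32 and 8.07 in the NEMO knockout, without overlap. Socs3 had 7.94, 7.89 and 7.77 in the labelled double knockout, a difference of 0.18 ± 0.10 against wild type (adjusted p = 0.385) and of -0.30 ± 0.10 against the NEMO knockout (adjusted p = 0.528). Sirpa, an inhibitory receptor also carried by macrophages, rose by 1.23 ± 0.09 and 1.09 ± 0.09 in the NEMO and labelled double knockouts, and the phosphatase Ptpn6 by 0.25 ± 0.06 in the NEMO knockout (adjusted p = 0.0402). Among the same genes 1 of 19 rose in the labelled double knockout and the adaptor Sh2b1 fell (-0.26 ± 0.06, adjusted p = 0.031), against 9.32% of all probe sets called. Of the calls in the NEMO knockout, Socs3 was lost when replicate 2 of wild type or of the NEMO knockout was left out (adjusted p up to 0.0711) and Ptpn6 without any 1 of 8 arrays (up to 0.119), so 1 of 3 was left without wild type replicate 2. The Sh2b1 call was lost without any 1 of 5 arrays (up to 0.104).

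In the IGF axis, Igfals fell while Igf1 stayed level. Igfals encodes the acid-labile subunit that holds IGF1 in a ternary complex in plasma and is itself induced by growth hormone. It read 10.05, 9.54 and 9.94 in wild type, 8.93, 9.23 and 8.96 in the NEMO knockout and 9.48, 8.80 and 9.03 in the labelled double knockout. All knockout mice were below the lowest wild type mouse. It was lower by 0.81 ± 0.19 (adjusted p = 0.0284) and 0.74 ± 0.19 (adjusted p = 0.0358) on the log2 scale. These calls rest on few arrays. The first was lost when replicate 1 or 3 of either wild type or the NEMO knockout was left out (adjusted p up to 0.103), and the second without any 1 of 6 arrays (up to 0.121). Igfbp7, a matrix protein of the binding protein family, rose by 0.63 ± 0.10 and 0.62 ± 0.10. Igf2r, which clears IGF2, rose in the labelled double knockout by 0.32 ± 0.07 (adjusted p = 0.0263) and the insulin receptor Insr fell by 0.34 ± 0.09 (adjusted p = 0.0411), calls lost without any 1 of 5 and 8 arrays (up to 0.102 and 0.149). In all, 1 of 12 rose and 1 fell in the NEMO knockout, and 2 rose and 2 fell in the labelled double knockout, where 7.68% and 9.32% of all probe sets were called. The list's median was -0.04 and 0.02, and that of all probe sets -0.04 and -0.03. The binding proteins Igfbp1 (0.36 ± 0.79), Igfbp2 (-0.22 ± 0.20) and Igfbp3 (-0.26 ± 0.12) did not pass in the NEMO knockout (adjusted p = 0.85, 0.585 and 0.271).

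Other male-biased genes moved in the direction of the members where they passed. Of 28 listed genes outside the members, 22 were measured. In the NEMO knockout 6 fell, none rose and 16 did not pass (median -0.34, against -0.04 of all probe sets, of which 2.02% were called lower). For the labelled double knockout, 7 fell, none rose and 15 did not pass (median -0.30, against -0.03 of all, of which 3.51% were called lower), Mup3 being 1 of the 7. The oxysterol hydroxylase Cyp7b1 fell by 1.98 ± 0.33 in the NEMO knockout and was at -1.83 ± 0.33 in the labelled double knockout, and the organic anion carrier Slco1a1 was at -1.35 ± 0.17 and -1.71 ± 0.17 in the same order. The carboxylesterase Ces2a was at -1.25 ± 0.18 and -1.16 ± 0.18, and the coenzyme A hydrolase Nudt7 at -0.49 ± 0.11 and -0.83 ± 0.11, all past the threshold. Cyp2u1 fell by 1.10 ± 0.15 in the labelled double knockout and was at -0.52 ± 0.15 in the NEMO knockout (adjusted p = 0.0629). Male-biased genes were not all lower. The P450 enzymes Cyp2d9 (-0.06) and Cyp4a12b (-0.01) and the complement gene C6 (0.11) lay near 0 in the NEMO knockout (adjusted p = 0.774, 0.97 and 0.725). Without NEMO knockout replicate 3 the count there was 3 of 22, 3 of the 6 calls were kept whichever array was left out, and with array weights 12 fell in the labelled double knockout.

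Female-biased genes moved the other way where they passed, with an exception. Of 29 listed genes 24 were measured. In the NEMO knockout 7 rose, 1 fell and 16 did not pass (median 0.47, against -0.04 of all probe sets, of which 5.66% were called higher). The labelled double knockout had 9 that rose, 1 that fell and 14 that did not pass (median 0.63, against -0.03 of all, of which 5.81% were called higher). Ntrk2, a neurotrophin receptor, read 5.48, 5.66 and 5.20 in wild type, 7.42, 8.22 and 8.08 in the NEMO knockout and 6.96, 7.37 and 7.78 in the labelled double knockout. It rose by 2.46 ± 0.25 and 1.93 ± 0.25. The peroxisomal transporter Abcd2 rose by 2.06 ± 0.23 and 1.28 ± 0.23, the organic anion carrier Slc22a27 by 1.71 ± 0.31 and 2.40 ± 0.31 and the proton pump subunit Atp6v0d2 by 1.52 ± 0.33 and 1.75 ± 0.33. The monooxygenase Fmo2 rose by 0.79 ± 0.19 and 1.68 ± 0.19. Atp6v0d2 is also known from macrophages and osteoclasts, and Prom1, which rose by 0.72 ± 0.14 and 1.01 ± 0.14, from ductal and progenitor cells. Lifr, the receptor of leukemia inhibitory factor, fell by 0.91 ± 0.13 and 0.68 ± 0.13. The female P450 gene Cyp2b9 was at 1.86 ± 0.87 and 2.99 ± 0.87 and did not pass (adjusted p = 0.271 and 0.0657), with wild type mice at 9.74, 8.06 and 5.67. Some female-biased genes stayed dim in all groups, with Sult3a1 at a mean of 2.84, 2.86 and 2.83 and Cyp3a16 at 3.96, 3.97 and 3.92 in wild type, the NEMO knockout and the labelled double knockout. The count of 7 was 4 when replicate 1 or 3 of either wild type or the NEMO knockout was left out.

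**Figure D4:**
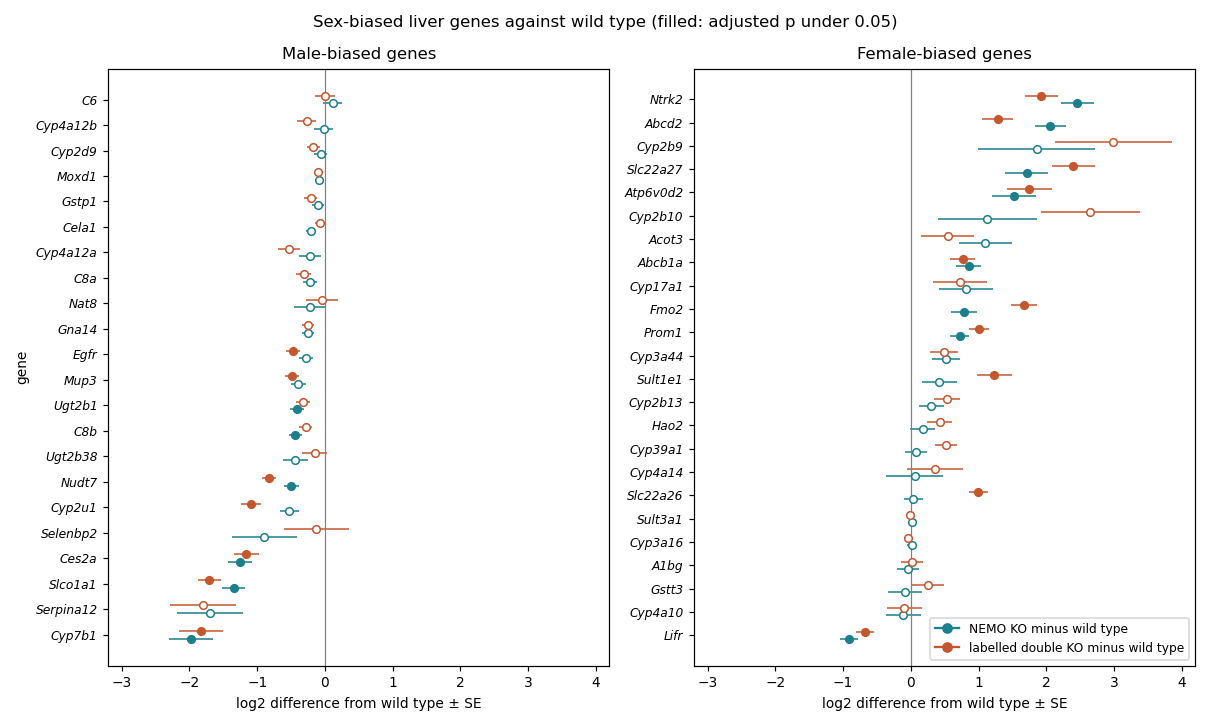
Log2 difference from wild type ± SE (horizontal axis) for measured male-biased genes (left, 22) and female-biased genes (right, 24), in the NEMO knockout and the labelled double knockout, filled where the adjusted p was under 0.05. Filled points lie below 0 among male-biased genes and above 0 among female-biased genes, other than Lifr.

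Lipid genes known to rise when hepatocytes lose STAT5 rose in part. In the NEMO knockout 4 of 14 rose and none fell (median 0.28, against -0.04 of all probe sets, of which 5.66% were called higher). The labelled double knockout had 5 that rose and none that fell (median 0.20, against -0.03 and 5.81%). The fatty acid transporter Cd36 read 8.08, 8.33 and 8.16 in wild type, 10.25, 9.996 and 10.32 in the NEMO knockout and 10.59, 10.54 and 10.50 in the labelled double knockout. Its increase of 2.35 ± 0.10 in the labelled double knockout was 5.11-fold (adjusted p = 1.38e-05). The lipase Lpl rose by 1.40 ± 0.27 and 1.37 ± 0.27, the lipid droplet protein gene Cidec by 1.71 ± 0.29 and 1.41 ± 0.29, and the nuclear receptor gene Pparg by 0.83 ± 0.13 and 0.88 ± 0.13 in the NEMO and labelled double knockouts. The acyltransferase Mogat1 rose by 1.03 ± 0.27 in the latter alone (adjusted p = 0.0436). Cd36, Lpl and Pparg are also known from macrophages. The lipogenic enzymes Scd1, Fasn and Acaca and the regulator Srebf1 did not pass in either group. The count in the labelled double knockout was 3 when wild type replicate 2, wild type replicate 3 or its own replicate 3 was left out, and the Lpl call in the NEMO knockout was lost without NEMO knockout replicate 3 (adjusted p = 0.0632).

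Of 10 transcription factors tied to sex bias none passed in the NEMO knockout, where 7.68% of all probe sets were called. With so few genes this count does not show the list unchanged, and Foxa1 was at -0.76 ± 0.23 (limma adjusted p = 0.0857). Cux2, a female-biased factor, was at -0.01 ± 0.16, Hnf4a at -0.05 ± 0.09, Bcl6 at -0.51 ± 0.65 and Onecut1 at -1.02 ± 0.37 (limma adjusted p = 0.986, 0.813, 0.722 and 0.154). In the labelled double knockout 1 of 10 passed, where 9.32% of all probe sets were called. This was Tox, a female-biased factor, which rose by 0.66 ± 0.13 (adjusted p = 0.0115), and Bcl6 was at -1.24 ± 0.65 (adjusted p = 0.336).

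Markers of some other cell types mostly rose in both knockout groups, as did proliferation markers, while those of others did not. Against wild type, 5.66% (NEMO knockout) and 5.81% (labelled double knockout) of all probe sets were called higher. Of 8 monocyte and macrophage markers 8 rose in both knockout groups, with mean levels over the list of 6.63 to 6.77 in wild type, 8.38 to 8.56 in the NEMO knockout and 8.36 to 8.65 in the labelled double knockout. Of 10 stellate cell markers 8 rose in both (8.57 to 8.67, 9.49 to 9.72 and 9.48 to 9.63 in the same order), and of 10 Kupffer cell markers 7 rose and 1, Cd163, fell in both (8.62 to 8.79, 9.04 to 9.28 and 9.16 to 9.25). All 8 proliferation markers rose in both (5.93 to 6.90, 7.59 to 8.16 and 8.64 to 8.88). T and NK cell, neutrophil and cholangiocyte markers rose in 3 of 9, 2 of 8 and 3 of 7 in the NEMO knockout and in 0 of 9, 1 of 8 and 2 of 7 in the labelled double knockout. No B cell (of 5) or endothelial marker (of 8) passed in either group. The part of these cells in the members' differences was not tested. The mean levels of the hepatocyte markers, given above, overlapped between all groups.

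Between the knockout groups no member passed in either direction (9 tested with limma; at an unadjusted p under 0.05 there was 1, Susd4), where 0.197% of all probe sets were called, 0.111% lower and 0.0864% higher. Igf1 was the 1 member higher without overlap there, against 4.99% of all. The differences with their 95% intervals were -0.19 (-1.35 to 0.97) for Hsd3b5, -0.20 (-1.08 to 0.69) for Elovl3 and -0.01 (-0.71 to 0.69) for Mup21. For Ghr the difference was -0.02 (-0.19 to 0.14) and for Stat5b -0.01 (-0.18 to 0.17). Both intervals of Hsd3b5 and Elovl3 hold changes of more than 2-fold, so equal levels are not shown. Among the genes of the lists on sex bias, Slc22a26, a female-biased carrier, was the 1 that passed. It read 5.61, 5.38 and 5.52 in wild type, 5.76, 5.18 and 5.69 in the NEMO knockout and 6.62, 6.45 and 6.45 in the labelled double knockout. The labelled double knockout was 0.96 ± 0.14 above the NEMO knockout (adjusted p = 0.0405), a call lost without any 1 of 8 arrays (adjusted p up to 0.161).

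The genes whose profile over the 9 arrays was nearest to that of Hsd3b5 were chosen by the root mean square difference of log2 values centred on each gene's mean, among named genes outside the members. They were the adhesion receptor Adgrf1 (1.09), Cyp7b1 (1.37), the pseudogene Serpina4-ps1 (1.55), the pseudogene Adh6-ps1 (1.56) and Slco1a1 (1.58), where the median over all named genes was 2.28. Among the members, Elovl3 (1.29), Mup21 (1.54) and Susd4 (1.60) were nearer to Hsd3b5 than Ghr (2.18) or Stat5b (2.18). The centred values were not scaled, so this nearness largely restates the size of each gene's fall. Adgrf1 was at -2.42 relative to wild type in the NEMO knockout and at -3.55 in the labelled double knockout. For Igf1 the nearest were Hif1a (0.025), Dmwd (0.026), Rpl14-ps1 (0.028), Hnrnpll (0.029) and Aplf (0.030), against a median of 0.141. Group differences of these genes were at most 0.11 in size, and that of Igf1 at most 0.08.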

How the data were processed

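The authors deposited 1 table of log2 expression values for 9 arrays, made with RMA per the submitters' processing notes. Base 2 was inferred, since RMA gives it and the values span a log range, and no tool version was given. RMA brings arrays to a common distribution, so a change shared by most genes would not be seen. Of 35556 probe sets, 6617 with identifiers below the first annotated one were taken as controls and left out. The number of arrays limits the precision.

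Group means were compared here with limma 3.58.1 in R 4.3.3 (lmFit, eBayes without trend), fitting the 9 arrays together, with Benjamini-Hochberg adjustment over 28939 probe sets. A call is an adjusted p under 0.05, and errors of differences are SE. The fit was tested on simulated data. With 3 arrays against 3, an exact permutation test cannot go below p = 0.10, so none was used. Members and gene lists were chosen with earlier results of these data known, and lists were given counts and medians without a set test. Named genes are the members, Ikbkg and Cdkn1a, up to 4 called genes per list of largest difference from wild type, list genes called between the knockout groups, 12 named pathway genes, and the 5 profiles nearest to Hsd3b5 and to Igf1. Lifr, Prom1, Cyp2b9, Cd163, Hsd3b7, examples that did not pass and relatives of Hsd3b5 and Mup21 were named after their values were seen. Same-numbered replicates did not vary together throughout, so numbers were not used as pairs. Alternatives were 3 normalizations, a filter on low values, trend, array weights, a replicate block, 2-group fits, controls kept, averaged probe sets and leaving out each array.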

Additional observations from a re-analysis of the deposited data

Results flagged for a closer look

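A test of the difference between the 2 knockout groups' changes from wild type passed for 3 listed genes (limma, labelled double knockout against NEMO knockout). Slc22a26, a female-biased carrier gene, differed by 0.96 (adjusted p = 0.0405), the mitotic spindle gene Prc1 by 1.16 (adjusted p = 0.0348) and the ribonucleotide reductase subunit gene Rrm2 by 1.65 (adjusted p = 0.0348). All 3 were higher in the labelled double knockout, and each call was lost when any 1 of 8 of the 9 arrays was left out (adjusted p up to 0.161).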

How the results depend on the processing

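Of 1415 values under alternatives, 1219 kept their direction and side of the threshold or stayed within 1.5 times the count. Hsd3b5, Elovl3, Susd4 and Mup21 kept their calls against wild type throughout the 19 alternatives. The causes of the changes below were not tested.

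Ghr passed in the NEMO knockout with median centring (-0.32), array weights (-0.30), the low-value filter, trend and the replicate block (-0.26 each). In the labelled double knockout it missed the threshold with cyclic loess (-0.25) and with controls kept (-0.28). Stat5b passed with centring (-0.31 and -0.32). Differences near 0 changed sign: Igf1 became 0.012 (NEMO knockout, cyclic loess) and -0.011 (labelled double knockout, centring), and Socs2 became -0.018 (NEMO knockout, centring). Between the knockout groups Mup21 became 0.00017 (cyclic loess), Ghr 0.014 (weights), and Stat5b 0.017 (quantile), 0.014 (cyclic loess) and 0.0037 (weights). Calls over all probe sets between the knockout groups numbered 57, and 31 with centring, 18 with the replicate block, 28 with controls kept and 23 in the 2-group fit.

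Small list counts moved as follows. In the NEMO knockout, IGF axis and acute phase genes called higher were 2 with quantile, cyclic loess, filter, trend or weights. The IGF axis had 0 lower with controls kept. Signalling genes had 1 higher in the 2-group fit and 1 lower with centring. Neutrophil markers were 1 with filter, controls kept or the 2-group fit, and cholangiocyte markers 1 with controls kept. Between the knockout groups, female-biased calls were 0 with controls kept or the 2-group fit, and proliferation calls 0 with the block or controls kept. In the labelled double knockout, male-biased calls lower were 12 with weights. Signalling genes lower were 0 with cyclic loess, the block or the 2-group fit. IGF axis genes lower were 0 with cyclic loess, controls kept or the 2-group fit and 1 with the block, and higher were 1 with centring or the 2-group fit. Acute phase genes lower were 1 with centring, trend, weights or the block, and higher 1 in the 2-group fit. Neutrophil markers were 0 with quantile, centring, the block or controls kept and 2 in the 2-group fit. Cholangiocyte markers were 1 with cyclic loess, centring, controls kept or the 2-group fit, and hepatocyte markers 1 higher with trend.

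Leaving out each array gave these ranges in the NEMO knockout against wild type: Igf1 -0.052 to 0.013, Socs2 -0.28 to 0.47, Cish -0.73 to 0.62, Ghr -0.30 to -0.20 and Stat5b -0.33 to -0.19. For the labelled double knockout they were -0.77 to 0.19 for Socs2, -0.30 to -0.24 for Ghr and -0.34 to -0.20 for Stat5b. Between the knockout groups they were -0.68 to 0.40 for Hsd3b5, -0.61 to 0.18 for Elovl3, -0.20 to 0.23 for Mup21, -0.81 to 0.15 for Socs2, -0.082 to 0.022 for Ghr and -0.025 to 0.015 for Stat5b. All calls ranged from 1382 to 2335 (lowest without NEMO knockout replicate 3), from 1601 to 2720 (lowest without labelled double knockout replicate 3) and, between the knockout groups, from 10 to 44. NEMO knockout list counts ranged from 3 to 8 male-biased lower, 4 to 8 female-biased higher, 1 to 4 T and NK cell markers and 1 to 3 signalling, acute phase, neutrophil and cholangiocyte genes higher. The IGF axis ranged from 1 to 2 higher and 0 to 1 lower, and sex-bias factors from 0 to 1 in each direction. For the labelled double knockout, lipid genes ranged from 3 to 5, IGF axis and acute phase genes higher from 1 to 2, and IGF axis genes lower, neutrophil and cholangiocyte markers from 0 to 2. Signalling genes, sex-bias factors and acute phase genes lower, and endothelial markers higher, ranged from 0 to 1. Between the knockout groups proliferation markers ranged from 0 to 2, and female-biased genes in each direction and neutrophil markers lower from 0 to 1.

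Same-numbered replicates had deviation correlations from -0.116 to 0.391, so the numbers were not taken as pairs. The highest were those between the knockout groups for replicate 1 (0.391) and replicate 3 (0.247). Differently numbered replicates of the knockout groups had -0.301 to 0.115. Whether the numbers mark a shared batch was not tested. Beyond the values given, the replicate block ended no call of a member and added that of Ghr.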

Other observations

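Cytokine genes, Il6, Tnf and Il1b among them, the receptor gene Il6ra and acute phase genes formed 1 list, called acute phase genes above. Most were not called. Il6 was dim, at a mean of 3.16, 3.13 and 3.11 in wild type, the NEMO knockout and the labelled double knockout. So few genes without a call do not show that the acute phase response was unchanged. Of 11 measured genes 1 rose and 1 fell in the NEMO knockout, and 2 rose and none fell in the labelled double knockout, where 7.68% and 9.32% of all probe sets were called. The list's median was 0.21 and 0.20, against -0.04 and -0.03 over all probe sets. Its mean level was 8.22 to 8.55 in wild type, below the 8.66 to 8.90 of the NEMO knockout and the 8.69 to 8.90 of the labelled double knockout. Lcn2, which encodes an iron-siderophore binding protein, rose by 2.19 ± 0.37 and 2.24 ± 0.37 (limma adjusted p = 0.0064 and 0.00497). Orm2, an acute phase glycoprotein gene, was at 0.84 ± 0.22 in the NEMO knockout (adjusted p = 0.0536) and rose by 1.03 ± 0.22 in the labelled double knockout (adjusted p = 0.0201). The latter call was lost without wild type replicate 2, wild type replicate 3, or replicate 1 or 3 of the labelled double knockout (adjusted p up to 0.0708). Crp, the C-reactive protein gene, fell by 0.48 ± 0.09 in the NEMO knockout (adjusted p = 0.00813).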
